A study of Danio rerio with 34 samples.

Results

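The VEGF receptors and their co-receptors were compared between cells sorted as endothelium, hemogenic endothelium and blood stem and progenitor cells in zebrafish embryos. The 9 genes were *kdrl*, *kdr*, *flt1* and *flt4*, which encode receptor tyrosine kinases for vascular endothelial growth factors (VEGFs), *nrp1a*, *nrp1b*, *nrp2a* and *nrp2b*, which encode neuropilins, and *plxnd1*, which encodes the semaphorin receptor Plexin D1. They were taken by gene symbol from a table of 47048 genes, and all 9 were among the 21161 genes that passed the filter on low counts.

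RNA-seq was performed on 16 libraries from the trunk of Tg(*kdrl*:mCherry/runx1:en-GFP) embryos at 36 h post fertilization (hpf), in *dnmt1* mutants (*dnmt1* s872) and their siblings. Dnmt1 is the methyltransferase that copies DNA methylation onto newly made strands. Cells were sorted by both transgenes into endothelial cells (ECs, *kdrl*+*runx1*-), hemogenic endothelial cells (HECs, *kdrl*+*runx1*+), from which blood stem cells arise, and hematopoietic stem and progenitor cells (HSPCs, *kdrl*-*runx1*+). There were 3 EC and 3 HEC libraries of mutants and as many of siblings, and 2 HSPC libraries of each genotype, numbered 2 and 3. All groups carry both transgenes, and siblings are described only as siblings, without their own *dnmt1* genotype. Nothing in the labels says whether replicates came from separate clutches, so the *P*-values measure the spread between these libraries. The label protocol describes single-cell 3′-tag libraries, whereas the methods describe pools of sorted cells.

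VEGF receptors are kinases of the endothelial cell surface. Kdr and Kdrl are the zebrafish counterparts of mammalian VEGFR2 and pass on the Vegfa signal for growth of vessels, Flt1 binds Vegfa tightly but signals weakly and acts largely as a trap, and Flt4 is the receptor of Vegfc, known for venous and lymphatic sprouting. Neuropilins have only a short cytoplasmic tail, bind VEGFs as well as class 3 semaphorins, and work together with VEGF receptors and plexins. They are also used outside vessels, above all in axon guidance.

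Values are CPM, read counts of a gene scaled to the total of its library, after TMM normalization, which corrects for differences in library composition. A gene was called different where edgeR's quasi-likelihood test gave an adjusted *P*-value (Benjamini-Hochberg) under 0.05 and the log2 fold change was at least 1 in either direction. Fold changes are given with a standard error (SE). It was derived from the test, as the absolute log2 fold change divided by the square root of the F statistic, so it is approximate, above all near 0 counts. CPM are not corrected for transcript length, so each gene is compared with itself across libraries and not with other genes. Libraries held 3125048 to 13201410 gene counts, with a median of 4563344, and 45.8% of all reads were given to no gene. In each library 3 counts, the most that an unseen gene could plausibly have given, correspond to under 1 CPM.

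The sorted classes were first set against their markers. The summed level of 12 endothelial markers was 4112 to 6899 CPM in ECs, 1593 to 2395 CPM in HECs and 24.5 to 43.4 CPM in HSPCs, and all 12 were called lower in HSPCs than in either other class. Over 12 hematopoietic markers the sums were 499 to 1577 CPM in ECs, 1775 to 7154 CPM in HECs and 562 to 2615 CPM in HSPCs, and of the 11 tested 3 were called higher in HECs than in ECs, 3 lower in HSPCs than in HECs, and 1 lower in HSPCs than in ECs. The level of *runx1*, which drives the reporter of the HSPC gate, averaged 16.7 CPM in ECs, 41.1 CPM in HECs and 8.42 CPM in HSPCs, and that of *myb* averaged 10.1, 112 and 14.0 CPM. By contrast, 6 erythroid markers summed to 29673 to 135532 CPM in HSPCs, against 2625 to 12606 CPM in HECs. In ECs their sums were 0 to 1788 CPM. Of these markers, 0 were called in HSPCs over HECs, and 6 were called higher in HSPCs than in ECs. Markers of other tissues were present in the HSPC libraries too, with 898 to 1658 CPM over 8 neural markers and up to 21199.7 CPM over 6 muscle markers. The HSPC libraries are therefore named by their sort gate here. The level of *dnmt1* was 77.4 to 117 CPM in mutant and 43.7 to 108 CPM in sibling ECs, 77.9 to 134 CPM in mutant and 119 to 137 CPM in sibling HECs, and 95.3 to 234 CPM in mutant and 78.9 to 181 CPM in sibling HSPCs. These ranges overlapped, and the level of a mutated transcript need not fall, so they do not check the genotype.

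Comparison of cell types addressed how the receptors differed between the sorted classes. To make it independent of the genotype labels, the contrasts were averaged over mutants and siblings. All 9 genes had a lower mean in HECs than in ECs, and 4 of them (*flt1*, *kdr*, *nrp2a* and *nrp2b*) passed the test, whereas 3.63% of all genes were called lower in that comparison. From HECs to HSPCs the calls divided the neuropilins, and a difference between the families was not tested. The 4 receptor kinases, *nrp1a* and *plxnd1* were called lower in HSPCs, whereas *nrp1b*, *nrp2a* and *nrp2b* were not, beside 5.62% of all genes called lower. The low level of *kdrl* in HSPCs follows from a gate that excludes *kdrl* reporter cells. It is nonetheless included in the HSPC counts and medians of the 9 genes. Against ECs, HSPCs had lower levels of all genes but *nrp2a* by the same test, so 8 of 9, beside 7.4% of all genes. None of the 9 was called higher in any of these comparisons, in which 3.49%, 8.37% and 8.44% of all genes were called higher. The median log2 fold change over the 9 genes was -1.62 in HECs over ECs, -2.41 in HSPCs over HECs and -3.19 in HSPCs over ECs, while over all genes tested it was 0.02, 0.04 and 0.19. Blood markers had higher sums in HECs, where 5 myeloid markers summed to 435 to 10245 CPM against 0.47 to 941 CPM in ECs, none of which was called by edgeR, and 3 of 11 hematopoietic markers were called higher. Their part in the lower receptor levels was not tested. In bulk RNA, fewer cells of a type and less RNA per cell cannot be told apart.

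**Figure D1:**
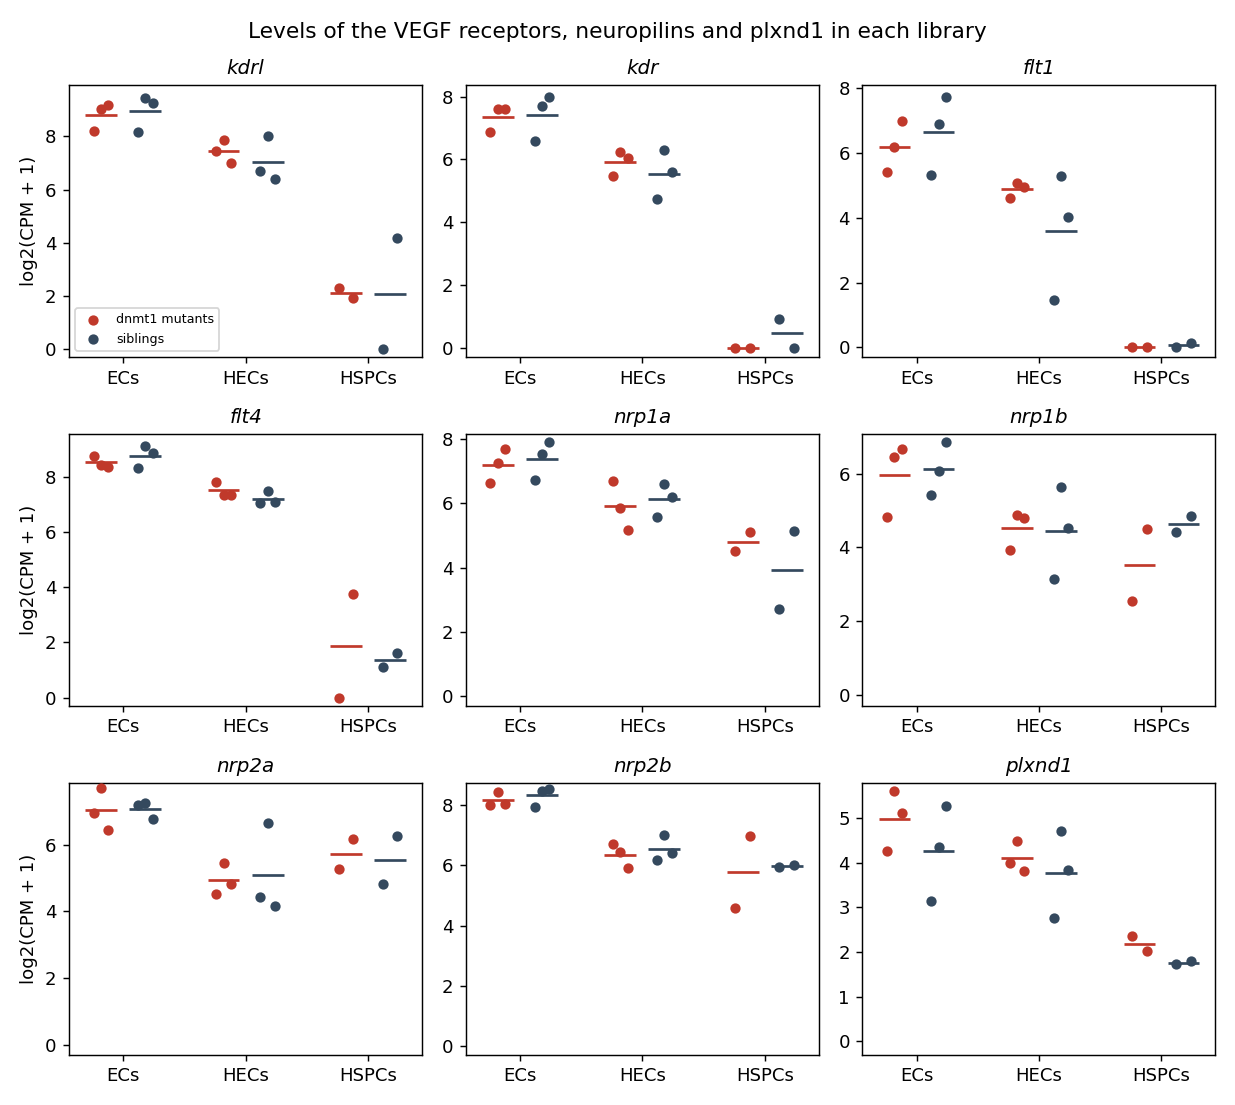
Level of each gene as log2(CPM + 1) in each of the 16 libraries, by cell type, with *dnmt1* mutants (red) left of siblings (dark blue); points are libraries and short lines are group means. The receptor kinases *kdrl*, *kdr*, *flt1* and *flt4* sit near the bottom of their panels in HSPCs, whereas *nrp2a* and *nrp2b* stay within or near the HEC range.

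The receptor kinases came first. The level of *kdrl*, the gene whose promoter drives the endothelial reporter, was 296, 518 and 586 CPM in mutant ECs and 282, 704 and 615 CPM in sibling ECs. In HECs it was 176, 235 and 125 CPM in mutants and 104, 255 and 84.2 CPM in siblings. In HSPCs it was 3.93 and 2.76 CPM in mutants and 0 and 16.9 CPM in siblings. No HEC library reached the lowest EC library, but the spread between libraries was wide, and *kdrl* was not called in HECs over ECs (log2 fold change -1.62, SE 0.62, adjusted *P* = 0.122). The fall of *kdrl* in HSPCs over HECs (-4.91, SE 0.87, adjusted *P* = 0.00345) follows from a gate that excludes *kdrl* reporter cells and is a check of the sort, not a finding. The HSPC libraries gave 18 and 38 *kdrl* counts in mutants and 0 and 199 in siblings, so that sibling replicate 3 held most of them.

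The second VEGFR2 gene, *kdr*, does not drive the reporter, but its level in HSPCs is not independent of the gate. Cells with the endothelial reporter were excluded there, and all 12 endothelial markers were called lower in HSPCs than in HECs. For *kdr*, *flt1* and *flt4* the sort and a change within cells cannot be told apart in HSPCs. The same limit holds for *nrp1a* and *plxnd1*, where they were called lower in HSPCs. In ECs *kdr* had 115, 194 and 192 CPM in mutants and 94.1, 209 and 250 CPM in siblings. In HECs it had 43.0, 73.7 and 64.8 CPM in mutants and 25.8, 77.5 and 47.0 CPM in siblings. Every HEC library was below every EC library, and the level in HECs was 31.4% of the EC mean (log2 fold change -1.67, SE 0.47, adjusted *P* = 0.0463). This call sat close to the threshold and held in 9 of 20 alternatives. In HSPCs *kdr* all but disappeared, with 0 counts in both mutant libraries and 3 and 0 counts in sibling libraries. Pooled over libraries, this was 621-fold less than in HECs (95% exact interval 212 to 3015) and 2020-fold less than in ECs (691 to 9800), where the intervals cover counting error only. Taking 3 counts over the group as the limit for 0 counts, *kdr* was at least 378-fold lower in mutant HSPCs than in mutant HECs. Both steps down to HSPCs were called, at adjusted *P*-values of 5.41e-05 against HECs and 8.99e-06 against ECs.

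The VEGF trap gene *flt1* had the largest fitted drop between ECs and HECs among the 9 genes. Its level was 41.7, 71.6 and 125 CPM in mutant ECs and 39.1, 118 and 209 CPM in sibling ECs. HECs had 23.6, 32.5 and 29.9 CPM in mutants and 1.74, 38.1 and 15.4 CPM in siblings. The classes did not overlap, by a margin of 38.1 against 39.1 CPM, and the sibling HECs spread more widely than the mutant HECs. The log2 fold change of HECs over ECs was -2.10 (SE 0.59, adjusted *P* = 0.0461), a call that also held in 9 of 20 alternatives. A single *flt1* count was found over all 4 HSPC libraries, in the sibling library of replicate 3, which was 780-fold less than in HECs (95% exact interval 140 to 30823) and 3667-fold less than in ECs (658 to 144887). These calls had adjusted *P*-values of 0.000371 against HECs and 3.91e-05 against ECs.

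The Vegfc receptor gene *flt4* varied least between libraries among the receptor kinases in both endothelial classes. It had 432, 341 and 327 CPM in mutant ECs and 313, 545 and 465 CPM in sibling ECs, and 224, 161 and 161 CPM in mutant HECs and 130, 178 and 133 CPM in sibling HECs. Its coefficient of variation was 20.9% over HECs and 22.8% over ECs, against 36.3% to 56.2% over HECs and 33.8% to 63.9% over ECs for the other 3 kinases. The HEC libraries again lay below all EC libraries, yet *flt4* was not called (log2 fold change -1.30, SE 0.56, adjusted *P* = 0.163). HSPCs had 0 and 12.6 CPM in mutants and 1.15 and 2.04 CPM in siblings, which is 0, 173, 4 and 24 counts. All were far below HECs, with a log2 fold change of -5.63 (SE 0.82, adjusted *P* = 0.000862), and below ECs, with -6.93 (SE 0.87, adjusted *P* = 0.000115). The mutant HSPC library of replicate 3 held 173 of the 201 counts in this class.

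Among the neuropilins, only *nrp1a* was called lower in HSPCs than in HECs. It had 98.5, 150 and 204 CPM in mutant ECs and 104, 182 and 237 CPM in sibling ECs. In HECs it had 103, 56.9 and 34.9 CPM in mutants and 46.6, 95.9 and 71.6 CPM in siblings. One HEC library, that of mutant replicate 1, overlapped the EC range, and the difference did not pass the test (log2 fold change -1.26, SE 0.42, adjusted *P* = 0.0758). HSPCs had 21.8 and 33.1 CPM in mutants and 5.48 and 33.9 CPM in siblings, just below the lowest HEC library of 34.9 CPM. This step was called (-1.54, SE 0.48, adjusted *P* = 0.0469), as was HSPCs over ECs (-2.79, SE 0.51, adjusted *P* = 0.00219). The call against HECs sat close to the threshold and held in 6 of 18 alternatives, with adjusted *P*-values of up to 0.137 in edgeR.

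The paralog *nrp1b* was called lower in HSPCs than in ECs, with its HEC level between. It had 27.3, 86.5 and 100 CPM in mutant ECs and 41.8, 67.0 and 116 CPM in sibling ECs. In HECs it had 14.2, 28.5 and 26.9 CPM in mutants and 7.82, 49.2 and 22.1 CPM in siblings, each below the EC library of the same genotype and number. HECs were not called lower than ECs without pairing (log2 fold change -1.56, SE 0.50, adjusted *P* = 0.0689), but were with the replicate number as a block (adjusted *P* = 0.0191). HSPCs had 4.81 and 21.8 CPM in mutants and 20.5 and 28.0 CPM in siblings, well inside the HEC range apart from the lowest library. The difference of HSPCs over HECs was -0.45 (SE 0.56, adjusted *P* = 0.647), and that of HSPCs over ECs was -2.02 (SE 0.59, adjusted *P* = 0.032).

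Unlike the other 8 genes, *nrp2a* had its lowest mean in HECs and not in HSPCs. Its levels were 123, 205 and 86.0 CPM in mutant ECs and 147, 150 and 108 CPM in sibling ECs. In HECs they were 22.1, 43.1 and 27.3 CPM in mutants and 20.6, 99.1 and 16.9 CPM in siblings. The sibling HEC library of replicate 2 stood apart from the other 5, which lay between 16.9 and 43.1 CPM, and was the only one to reach the EC range. HECs were called lower than ECs (log2 fold change -1.87, SE 0.45, adjusted *P* = 0.0264). HSPCs had 37.6 and 70.8 CPM in mutants and 27.4 and 76.2 CPM in siblings. The mean of 53.0 CPM was above the HEC mean of 38.2 CPM, but the ranges overlapped and the difference did not pass the test (0.51, SE 0.49, adjusted *P* = 0.538). Against ECs the difference did not pass either (-1.36, SE 0.51, adjusted *P* = 0.0835), although all HSPC libraries lay below all EC libraries.

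The steadiest difference between ECs and HECs was that of *nrp2b*. It had 260, 345 and 263 CPM in mutant ECs and 248, 358 and 377 CPM in sibling ECs. In HECs it had 104, 85.9 and 59.0 CPM in mutants and 71.2, 128 and 84.5 CPM in siblings. The HEC libraries ended at 128 CPM and the EC libraries began at 248 CPM, with a log2 fold change of -1.80 (SE 0.34, adjusted *P* = 0.0113). HSPCs had 23.2 and 124 CPM in mutants and 61.4 and 63.6 CPM in siblings. Of these, 23.2 CPM lay below the HEC range and the others inside it. The difference against HECs did not pass the test (-0.38, SE 0.38, adjusted *P* = 0.549), but its size turned on 1 library. Mutant replicate 3 held 1712 of the 2781 HSPC counts, and without it the log2 fold change was -1.22. Relative to ECs, HSPCs were called lower (-2.18, SE 0.40, adjusted *P* = 0.00229).

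The semaphorin receptor gene *plxnd1*, which restrains vessel sprouting in zebrafish, was called at the second step and not at the first. It had 18.1, 47.7 and 33.6 CPM in mutant ECs and 7.83, 19.6 and 37.4 CPM in sibling ECs. In HECs it had 14.9, 21.6 and 13.2 CPM in mutants and 5.79, 25.3 and 13.3 CPM in siblings. These ranges overlapped broadly, and *plxnd1* had the smallest difference of the 9 genes between HECs and ECs (log2 fold change -0.77, SE 0.46, adjusted *P* = 0.318). HSPCs had 4.15 and 3.05 CPM in mutants and 2.31 and 2.46 CPM in siblings, below every HEC library. Here *plxnd1* was called lower, with -2.41 against HECs (SE 0.57, adjusted *P* = 0.0144) and -3.19 against ECs (SE 0.59, adjusted *P* = 0.00224).

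**Figure D2:**
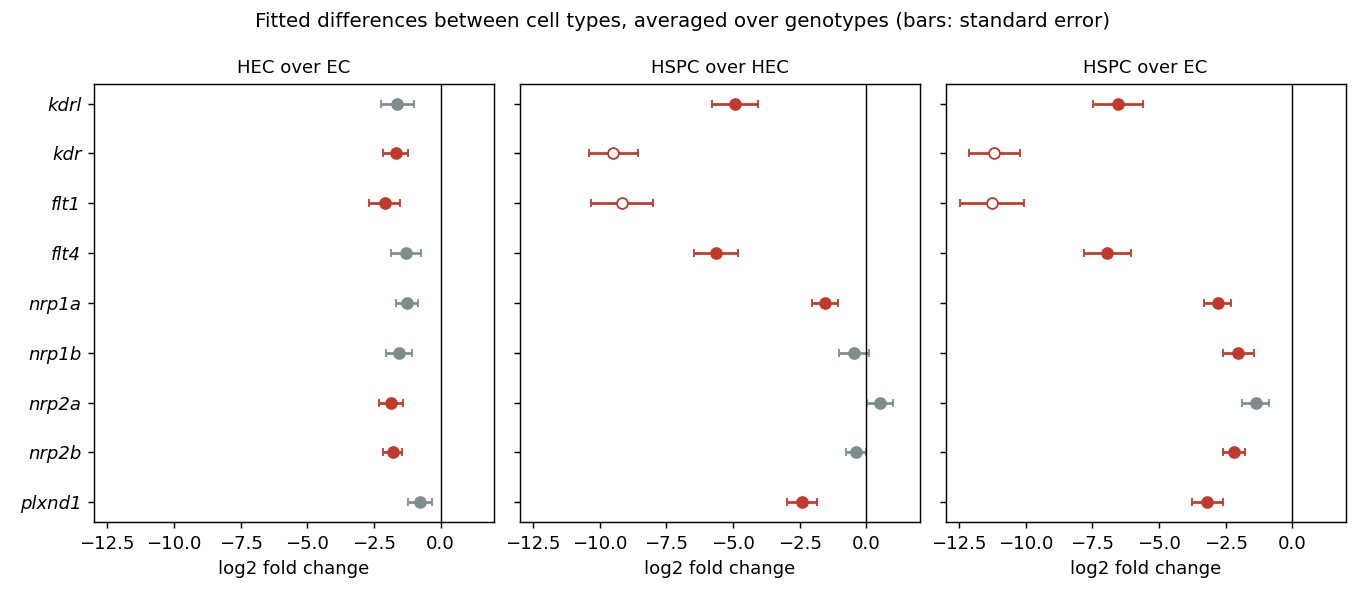
Fitted log2 fold change (horizontal axis) with its standard error for each gene in HECs over ECs, HSPCs over HECs and HSPCs over ECs, averaged over genotypes; red points passed the test, grey points did not, and open points have 1 to 3 counts in all HSPC libraries together, so that their fitted value depends on the prior count. The 4 receptor kinases lie furthest left in both HSPC panels, and *nrp1b*, *nrp2a* and *nrp2b* lie near 0 in HSPCs over HECs.

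Overlap between libraries picked out partly different genes from the test. In HECs over ECs, 5 of the 9 genes had no overlap between the classes (*kdrl*, *kdr*, *flt1*, *flt4* and *nrp2b*), beside 3.23% of all genes whose HEC libraries all lay below all EC libraries. In HSPCs over HECs there were 6 such genes (the 4 kinases, *nrp1a* and *plxnd1*), beside 6.65%, and in HSPCs over ECs 8, all but *nrp1b*, beside 7.92%. Both HSPC counts include *kdrl*, which the gate selects against. Thus *kdrl* and *flt4* had no overlap at the first step but were not called, *nrp2a* was called but overlapped, and between HSPCs and ECs *nrp1b* was called with overlap and *nrp2a* had no overlap but was not called. Within pairs of libraries with the same genotype and number, HECs were below ECs in 6 of 6 pairs for 7 genes and in 5 of 6 for *nrp1a* and *plxnd1*. HSPCs were below HECs in 4 of 4 pairs for the kinases, *nrp1a* and *plxnd1*, in 3 of 4 for *nrp1b* and *nrp2b*, and in 2 of 4 for *nrp2a*. These pair counts were not made over all genes, so they have no share to be set against. Same-numbered pairs of mutants and siblings are also not independent. The EC libraries of replicate 1 had the lowest level of their genotype in 7 of the 9 genes in both genotypes, all but *flt4* and *nrp2a*.

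Within one genotype fewer calls were made. In HECs over ECs, 0 genes of the 9 were called in mutants and 0 in siblings. Only 1 and 4 of all genes were called there (0.00473% and 0.0189%). At an unadjusted edgeR *P* under 0.05 there were 4 of the 9 in mutants and 5 in siblings. With the fold minimum added, 3040 and 2816 of all 21161 genes were under that value. DESeq2 called 2 of the 9 in mutants and 3 in siblings, beside 1247 and 1149 of all genes. In HSPCs over HECs, 4 were called in mutants (the kinases), beside 1.21% of all genes called lower, and 3 in siblings (*kdr*, *flt1* and *flt4*), beside 0.922%. In HSPCs over ECs, 5 were called in mutants (the kinases and *plxnd1*, beside 2.36%) and 7 in siblings (the kinases, *nrp1a*, *nrp2b* and *plxnd1*, beside 3.3%). Where *kdrl* is among the genes called in HSPCs, its call again follows from the gate. The direction was the same in both genotypes for every one of the 9 genes in each of the 3 comparisons.

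The first step rested on fewer independent units than the library count implies. When same-numbered sibling and mutant libraries were summed into 1 unit each, 0 of the 9 genes and 0 of all genes were called in HECs over ECs by edgeR, with adjusted *P*-values of at least 0.128 for the 9 genes. Leaving out any 1 library left between 1 and 5 of the 9 called, with *nrp2b* among them each time, and leaving out the EC libraries of replicate 2 or 3 of either genotype, or any HEC library but that of sibling replicate 2, left only *nrp2b* or *nrp2a* and *nrp2b*. The second step held up better for the kinases, which stayed called in HSPCs over HECs with summed units (adjusted P up to 0.0362) and without any 1 library, whereas *nrp1a* (adjusted *P* = 0.117) and *plxnd1* (adjusted *P* = 0.0892) were lost with summed units.

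Kinases and neuropilins were also compared within each library, which does not depend on scaling between libraries. Of all counts on the 4 receptor kinases and the 4 neuropilins, the neuropilins took 32.4% to 42.6% in ECs (median 35.9%), 28.0% to 41.1% in HECs (median 35.1%) and 91.4% to 98.3% in HSPCs (median 95.0%). The EC and HEC shares overlapped in part, and the lowest HSPC share was more than any EC or HEC library reached. The kinases summed to 729 to 1576 CPM in ECs, 261 to 550 CPM in HECs and 2.02 to 19.0 CPM in HSPCs. For the neuropilins the sums were 509 to 838 CPM in ECs, 146 to 372 CPM in HECs and 87.4 to 250 CPM in HSPCs, so that HECs and HSPCs overlapped. These sums and shares combine genes of unequal length. Because *kdrl* belongs to the gate, at least part of the difference in HSPCs is set by the sort. For *kdr*, *flt1* and *flt4* the sort and a change within cells cannot be told apart there.

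**Figure D3:**
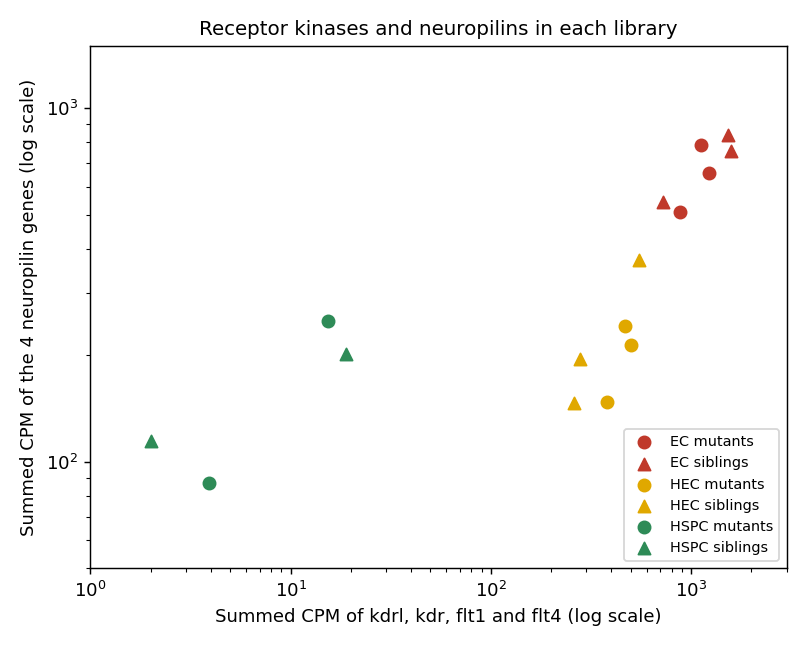
Summed CPM of the 4 neuropilin genes against summed CPM of the 4 VEGF receptor kinases in each library, both on log axes; circles are *dnmt1* mutants and triangles siblings. The 4 HSPC libraries (green) lie at 2.02 to 19.0 CPM of kinases, far left of the EC and HEC libraries, but at 87.4 to 250 CPM of neuropilins, a range shared with HECs.

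Markers of other cell types were present in the HSPC libraries that held neuropilin counts, although no neuropilin was called higher there. The summed level of the 8 neural markers was 352 to 834 CPM in ECs, 45.8 to 605 CPM in HECs and 898 to 1658 CPM in HSPCs, and 4 of the 8 were called higher in HSPCs than in HECs. For 6 mesenchyme markers the sums were 277 to 3984 CPM in ECs, 29.5 to 255 CPM in HECs and 201 to 1245 CPM in HSPCs, and for 6 neural crest and pigment markers 2.24 to 41.9, 6.79 to 55.5 and 66.4 to 1521 CPM. The HSPC libraries of replicate 3 held 16199 CPM of muscle markers in the mutant and 21199.7 CPM in the sibling, against 422 and 3.17 CPM in those of replicate 2. They were also the higher library of their genotype for *nrp1a*, *nrp1b*, *nrp2a* and *nrp2b*, though sibling *nrp2b* was nearly level (63.6 against 61.4 CPM). The kinase sums had the same order, at 15.3 against 3.93 CPM in mutants and 19.0 against 2.02 CPM in siblings. Replicate 3 also held more gene counts, 13201410 against 4040985 in mutants and 11979546 against 3832048 in siblings. Neural crest and pigment markers did not follow this order in siblings, with 1521 CPM in replicate 2 and 66.4 CPM in replicate 3. The part of these cells in the neuropilin counts was not tested. Endothelial markers in the same libraries were at most 43.4 CPM in sum.

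The genes whose log2 CPM followed each member most closely were taken over the 16 libraries and 21161 genes. For *kdrl* and *kdr* they included endothelial genes. The closest to *kdrl* were *plk2a* (Pearson r = 0.983), *tek* (0.982) and *tagln2_1* (0.976), where *tek* encodes the angiopoietin receptor Tie2. The closest to *kdr* were the endothelial junction gene *pecam1* (0.995), *tm4sf18* (0.988) and *ushbp1* (0.988), those to *flt1* were *fgd5b* (0.990), *micall2a* (0.976) and *LOC100333111* (0.976), and those to *flt4* were *adcy2b* (0.987), *ccdc80* (0.982) and *prcp* (0.982). For the neuropilins the likeness was lower in part. It was highest with *ppp1r13ba* (0.971), *pea15* (0.969) and *chp2_1* (0.955) for *nrp1a*, with *adma* (0.931), *nck1b* (0.913) and *il11a* (0.911) for *nrp1b*, with *id1* (0.933) and *LOC101886266* (0.922) for *nrp2a*, and with *rap2c* (0.951), *egfra* and *rgl1* (0.946) for *nrp2b*. For *plxnd1* it was highest with *tiam1b* (0.944), *mmp14b_1* (0.942) and *micall2a* (0.932), so that *micall2a* appeared for both *flt1* and *plxnd1*. These values describe likeness over libraries that fall into 3 classes and share pairs, and most of it is the difference between classes.

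Ligands and partners of the receptors were examined in lists of 62 genes, of which 54 were tested. In HECs over ECs 2 of these were called higher and 10 lower, in HSPCs over HECs 6 higher and 5 lower, and in HSPCs over ECs 2 higher and 14 lower. These are 3.7% and 18.5%, 11.1% and 9.26%, and 3.7% and 25.9% of the 54, beside 3.49% and 3.63%, 8.37% and 5.62%, and 8.44% and 7.4% of all genes, so that the shares in HSPCs over HECs were near those of all genes. Among 5 VEGF ligand genes tested of 8 listed, 1 was called in any of the 3 comparisons. It was *vegfc*, the ligand of Flt4, with a mean of 3.11 CPM in HSPCs against 40.3 CPM in ECs (log2 fold change -3.69, SE 0.93, adjusted *P* = 0.0151), a call that was lost with summed units (adjusted *P* = 0.0841 in edgeR). Neither of the 2 tested genes for processing of Vegfc was called.

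Class 3 semaphorins, the other ligands of neuropilins, gave 3 calls among 11 genes tested of 12. Lower in HSPCs than in ECs were *sema3ab*, at 7.57 against 75.7 CPM (log2 fold change -3.37, SE 0.80, adjusted *P* = 0.0109), and *sema3ga*, at 5.12 against 46.9 CPM (-3.44, SE 0.90, adjusted *P* = 0.0182). In HSPCs over HECs *sema3aa*, which repels axons, was called higher, at 25.4 against 1.94 CPM (3.86, SE 1.16, adjusted *P* = 0.0396). With summed units the call of *sema3ab* held (adjusted *P* = 0.0497 in edgeR), and those of *sema3ga* (0.105) and *sema3aa* (0.171) were lost. Of all 11, 0 were called in HECs over ECs by edgeR, and their median log2 fold change was -1.58 beside 0.02 over all genes. That median was -2.09 in mutants and -0.46 in siblings, where 4 of the 11 had a positive value.

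Plexins are semaphorin receptors, and some of them pair with neuropilins as the signalling subunit. Of 11 plexin genes other than *plxnd1*, 4 were called lower in HECs than in ECs and 1 higher. The lower ones were *plxna1a*, at 13.3 against 59.0 CPM (log2 fold change -2.15, SE 0.35, adjusted *P* = 0.00707), *plxna1b*, *plxna2* and *plxnb3*. The higher one was *plxnc1*, at 189 against 6.84 CPM (adjusted *P* = 0.0243). In HSPCs over HECs the direction turned, with *plxna1a*, *plxna1b* and *plxna4* called higher and 0 lower. The largest of these differences was that of *plxna4*, a partner of neuropilin in axon guidance, at 80.8 CPM in HSPCs against 6.96 CPM in HECs (3.57, SE 0.64, adjusted *P* = 0.0035), and it was also above ECs, at 12.4 CPM (2.91, SE 0.63, adjusted *P* = 0.00629). With summed units all 3 calls against HECs were lost (adjusted *P* = 0.0753, 0.18 and 0.0722 for *plxna1a*, *plxna1b* and *plxna4* in edgeR), as was that of *plxna4* against ECs (0.107), and *plxna1b* was called in only 5 of 18 alternatives. Lower in HSPCs than in ECs were *plxnb1b*, whose call was lost with summed units (adjusted *P* = 0.0879), and *plxnb3*, whose call held (0.0183). The plexins called higher in HSPCs than in HECs thus rose alongside the neural markers given above, whose part in this was not tested. Against ECs, 0 of the 8 neural markers were called higher in HSPCs. The HSPC means of *plxna1a* and *plxna1b*, 55.5 and 39.0 CPM, were below their EC means of 59.0 and 52.8 CPM.

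Downstream of the receptors, 25 of 28 listed signalling and feedback genes were tested. In HSPCs over HECs 5 were called lower (*plcg1*, *ptprb*, *dusp5*, *dusp6* and *cdc42*) and 2 higher (*map2k1* and *fyna*). For the 5 called lower, as for *kdr*, the sort and a change within cells cannot be told apart. The phospholipase gene *plcg1*, whose product binds activated VEGFR2, had 27.8 CPM in HSPCs against 88.9 CPM in HECs (log2 fold change -1.75, SE 0.27, adjusted *P* = 0.00122). The gene of the endothelial phosphatase VE-PTP, *ptprb*, had 6.12 against 51.6 CPM (-3.10, SE 0.41, adjusted *P* = 0.000405). The ERK phosphatase genes *dusp5* and *dusp6* had 14.7 against 88.3 CPM and 16.4 against 64.9 CPM (adjusted *P* = 0.00387 and 0.0295). The kinase gene *map2k1* went the other way, at 69.1 against 4.41 CPM (4.12, SE 0.61, adjusted *P* = 0.00092). In HECs over ECs 6 were called lower (*rac1a*, *spry4*, *ptk2aa*, *ptprb*, *map2k1* and *fyna*) and *map2k2a* higher. The mean of *fyna* was 0.413 CPM in HECs, against 13.4 CPM in ECs and 39.0 CPM in HSPCs. Both of its calls thus rest on a very low HEC level, and its EC and HEC libraries overlapped. The small GTPase gene *rac1a* led by its *P*-value, at 136 CPM in HECs against 455 CPM in ECs (-1.76, SE 0.25, adjusted *P* = 0.00355), and *spry4*, a feedback inhibitor of receptor kinases, had 203 against 664 CPM (-1.72, SE 0.38, adjusted *P* = 0.0196). Against ECs, HSPCs were called lower in 9 of these genes and higher in *map2k1*. With summed units, 0 of the pathway genes were called in HECs over ECs, and *plcg1*, *ptprb*, *dusp5* and *map2k1* were still called in HSPCs over HECs.

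**Figure D4:**
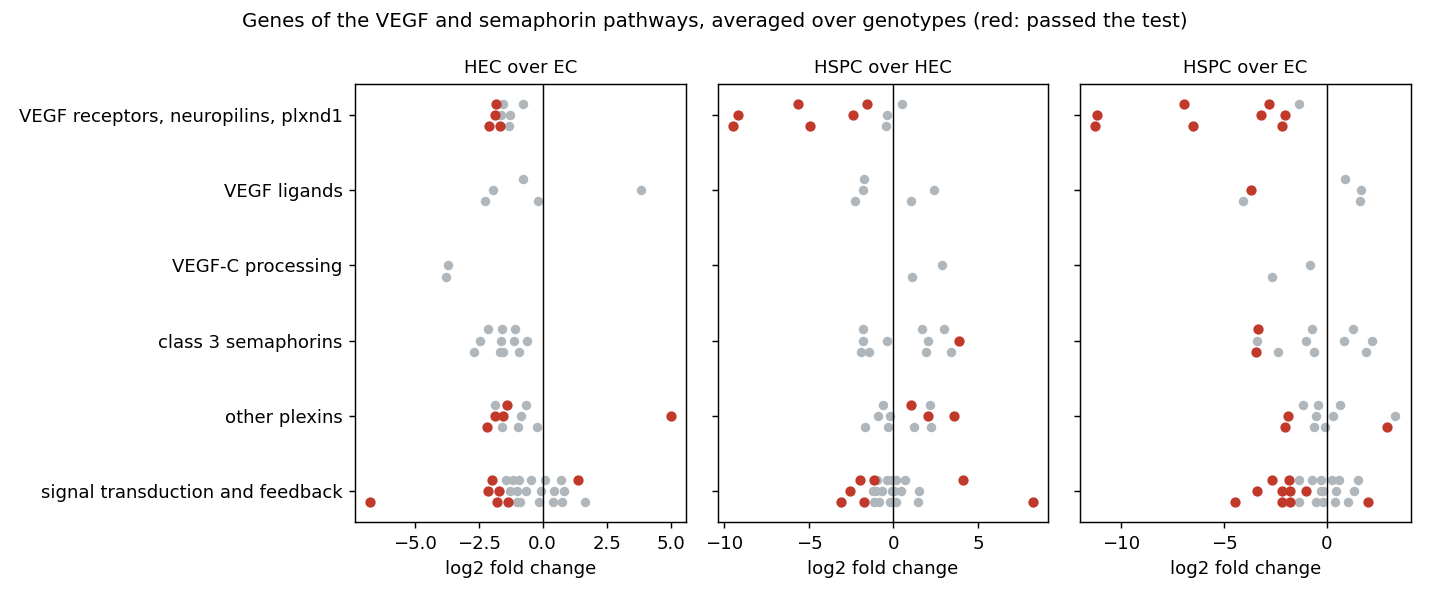
Log2 fold change (horizontal axis) of the 9 genes (top row) and of the tested genes of 5 pathway lists in HECs over ECs, HSPCs over HECs and HSPCs over ECs, averaged over genotypes; each point is a gene, red if it passed the test and grey if not, and the vertical offset within a row only separates points. The 9 genes lie at or left of 0 in all panels except *nrp2a* at 0.51 in HSPCs over HECs, whereas other plexins lie on both sides.

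Comparison of *dnmt1* mutants with siblings asked whether loss of the methyltransferase alters the receptors within a cell type. None of the 9 genes was called in ECs, HECs or HSPCs by edgeR, and only *kdr* in HSPCs, at 0 to 3 counts, had an unadjusted *P* under 0.05. The same fit called 0 of all genes (0% in each cell type), while 655, 564 and 398 genes had an unadjusted *P* under 0.05 with at least the same fold change, and DESeq2 called 38, 30 and 43 genes, none of the 9 among them. Columns of the count table were taken at the genotype in their names, but in the sample records the description that carries a column's name stands beside a title with the other genotype. If those titles were right for the column, every mutant over sibling direction would turn round, and the comparisons averaged over genotypes would stay as they are.

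In ECs the fitted differences were small against their errors. The 4 kinases ranged from -0.62 (*flt1*, SE 0.80) to -0.14 (*kdr*, SE 0.64) in mutants over siblings, and the neuropilins from -0.21 (*nrp1a*, SE 0.58) to 0.03 (*nrp2a*, SE 0.62). Within same-numbered EC pairs *nrp1a* was lower in the mutant in 3 of 3, by log2 differences of -0.28 to -0.08, and with the replicate block its fold change was -0.19 (SE 0.44, adjusted *P* = 1). The largest positive value was that of *plxnd1*, with a mean of 33.1 ± 14.8 CPM in mutants and 21.6 ± 14.9 CPM in siblings (SD, n = 3 each), and a log2 fold change of 0.61 (SE 0.64, unadjusted *P* = 0.357 in the edgeR fit). In HECs all 4 kinases had positive values, from 0.27 (*kdr*, SE 0.65) to 0.64 (*flt1*, SE 0.80), and all 4 neuropilins negative ones, from -0.56 (*nrp2a*, SE 0.62) to -0.14 (*nrp1a*, SE 0.58). For *flt1* the means were 28.7 ± 4.55 CPM in mutant HECs and 18.4 ± 18.4 CPM in sibling HECs (SD, n = 3 each), and the sibling library of replicate 1, with 6 counts, made most of that spread. For all 9 genes the genotypes overlapped in both ECs and HECs, where 6.35% and 4.82% of all genes had no overlap. All of these differences were within their standard error or little beyond it, and a *P*-value that misses the threshold does not show that the levels were equal.

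In HSPCs, with 2 libraries per genotype, values turned on single libraries. The log2 fold change of *flt4* in mutants over siblings was 1.96 (SE 1.04, unadjusted *P* = 0.0815 in the edgeR fit), carried by 1 mutant library with 173 counts, and without that library it was -6.31, fitted against a mutant library at 0 counts. That of *kdrl* was -1.39 (SE 1.11), and without the sibling library of replicate 3 it was 7.33, fitted against a sibling library at 0 counts. Both of these fitted values depend on the prior count. For *kdr* and *flt1* both genotypes were at or under 3 counts, so no fold change is given. The neuropilins ranged from -0.85 (*nrp1b*, SE 0.86) to 0.47 (*nrp1a*, SE 0.71). Only *plxnd1* had no overlap, with 4.15 and 3.05 CPM in mutants against 2.31 and 2.46 CPM in siblings, but 11.4% of all genes were higher in both mutant than in both sibling HSPC libraries, and the difference did not pass the test (0.58, SE 0.82, adjusted *P* = 1).

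The mutant change was also compared between cell types with interaction contrasts, and 0 of the 9 genes and 0 of all genes were called by edgeR, while 767 genes for HECs minus ECs, 474 for HSPCs minus HECs and 501 for HSPCs minus ECs had an unadjusted *P* under 0.05 with at least the same fold change. The opposite signs of the kinases in ECs and HECs therefore did not amount to a detected difference. For *flt1*, whose change differed most between these classes, the difference of HECs minus ECs was 1.26 (SE 1.13, adjusted *P* = 1).

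**Figure D5:**
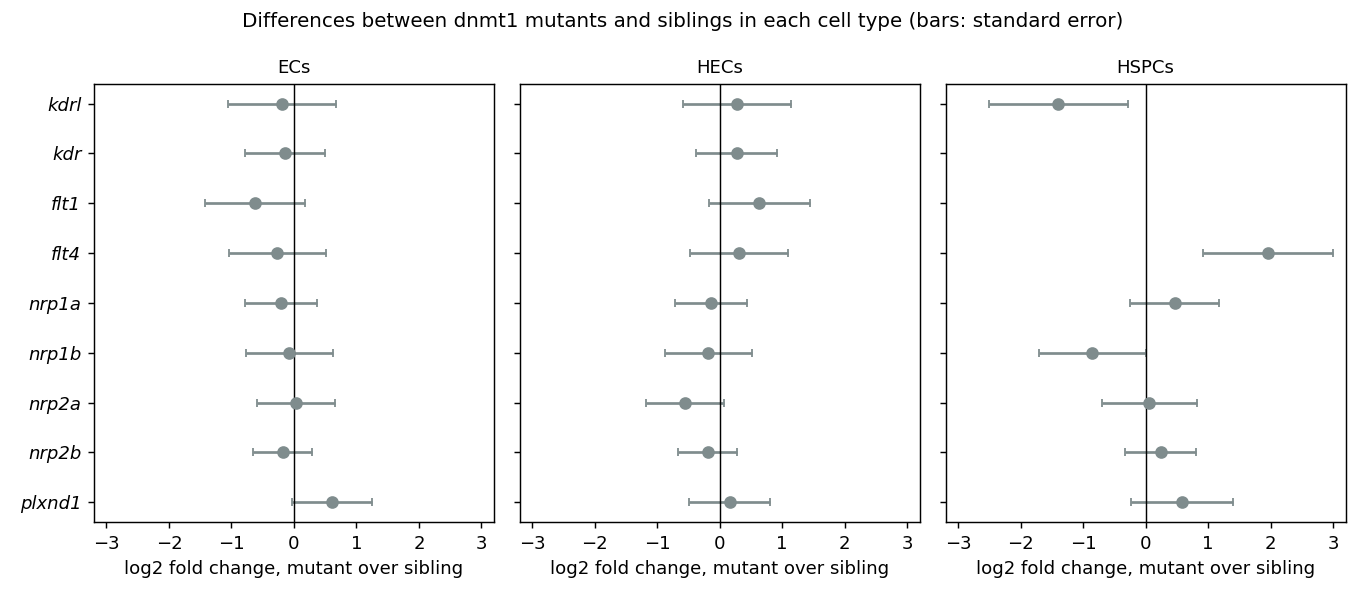
Log2 fold change of *dnmt1* mutants over siblings (horizontal axis) with its standard error for each gene in ECs, HECs and HSPCs; *kdr* and *flt1* are not drawn in HSPCs, where both genotypes were at or under 3 counts. In ECs and HECs all points lie between -0.62 and 0.64, and in HSPCs they spread from -1.39 to 1.96 with wider errors.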

How the data were processed

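RNA-seq counts came from 1 table of 16 libraries, whose columns were taken at the cell type, genotype and number in their names. The authors trimmed reads with cutadapt, aligned them to GRCz11 with HISAT2 2.2.1 and counted them per gene with HTSeq 0.12.4, and the deposited counts are not normalized. The annotation and strand setting are not given in the sources used here. Tallies of reads given to no gene (45.8%) stayed out of library sizes and tests. Duplicate rows of a gene symbol carry a suffix, and reads shared between paralogs could be lost or split.

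Counts were fitted with edgeR 4.0.16 in R 4.3.3 (TMM, low-count filter, robust quasi-likelihood fit, 6 groups of cell type by genotype over all libraries), with *P*-values adjusted over all genes tested in a contrast. The alternatives were RLE size factors, no filter, no fold minimum, only the compared groups, DESeq2 1.42.0 at adjusted *P* under 0.05 and under 0.5 (the value stated in the methods), the replicate block, summed same-numbered libraries, and each library left out. Same-numbered sibling and mutant libraries deviated together (r over genes 0.194 to 0.431 in 6 EC and HEC pairs, at most 0.0417 for different numbers, and 0.445 in both HSPC pairs, which mirror each other), so the numbers were taken to pair libraries, from this check and the labels. Named were all 9 genes, pathway genes that passed the test, and the 3 genes most correlated with each member (log2 CPM, prior count 2), of which 1 is not reported here. The members and lists were chosen with earlier results of these data known. A simulation altered 200 genes, drawn at random from all genes tested, by a log2 of 3. In it edgeR found 81 in HSPCs over ECs and 80 in HECs over ECs. In mutants over siblings it found 7, 15 and 0 in ECs, HECs and HSPCs. Because the genes were drawn at any level, these numbers do not measure how well a change in the 9 genes would be found. Plots were drawn with matplotlib. Deposited lists of methylation tiles and of the authors' fold changes were not used, and protein, promoter or other sequences were not analysed here.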

Additional observations from a re-analysis of the deposited data

Results flagged for a closer look

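A second table row for *flt1*, *flt1_1*, lay outside the comparisons. It held 6 counts over all libraries, of which 4 were in the EC library of sibling replicate 3. The row was flagged because 4 is above 3 counts, a limit that does not test whether a transcript is present. That library also had the highest *flt1* level, at 209 CPM. A second row for *kdrl*, *kdrl_1*, held 0 counts in every library. With 2 or 3 libraries in each group no test for outlying libraries was applied.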

How the results depend on the processing

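Among the 9 genes, the number called lower in HECs over ECs averaged over genotypes was 4, and it was 7 with DESeq2 at an adjusted *P* under 0.05, 8 with DESeq2 at 0.5, 8 with only the compared groups, 5 with the replicate block, 0 with summed same-numbered libraries and 1 to 5 with 1 library left out. With no filter it was 3, without *flt1*, beside 1229 of all genes called. For HSPCs over HECs it was 6, and 4 to 6 with 1 library left out, and for HSPCs over ECs 8, and 7 to 8. Within mutants, HECs over ECs gave 2 and 9 with DESeq2 at both thresholds, HSPCs over HECs gave 2 with no filter and 2 with any library left out, and HSPCs over ECs gave 9 with DESeq2 at 0.5, 3 with only the compared groups and 3 to 4 with a library left out. Within siblings, HECs over ECs gave 3 and 8 with DESeq2 and 0 to 1 with a library left out, HSPCs over HECs 5 and 6 with DESeq2, 0 with only the compared groups and 1 to 3 with a library left out, and HSPCs over ECs 3 with only the compared groups and 3 to 7 with a library left out. The causes of these differences were not tested. Over all genes, HECs over ECs gave 1507 calls, 3196 with DESeq2, 2310 with the replicate block and 0 with summed libraries, HSPCs over HECs 2960, 4053, 3083 and 463, and HSPCs over ECs 3353, 4484, 3455 and 1185. With DESeq2 at 0.5 these were 7141, 9057 and 9848, and with only the compared groups 2013, 2709 and 3053. In mutants, all genes called in HECs over ECs were 1247 and 5786 with DESeq2 at both thresholds. Mutant HSPCs over HECs gave 439 with no filter. Mutant HSPCs over ECs gave 6297 with DESeq2 at 0.5 and 457 with only the compared groups. In siblings, DESeq2 called 1149 and 5210 of all genes in HECs over ECs and 1505 and 6247 in HSPCs over HECs. With only the compared groups, sibling HSPCs gave 0 calls over HECs and 366 over ECs. For fits with 1 library left out, totals over all genes are not given. RLE size factors shifted the median of all genes by 0.16 in HSPCs over HECs. The sign was negative under every alternative for all 9 genes in HECs over ECs and in HSPCs over ECs, and for 8 in HSPCs over HECs, where *nrp2a* was positive throughout.

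Signs were checked for mutant over sibling differences and for cell type differences averaged over genotypes. They turned only among the former, none of which passed a test under any alternative. Signs of the cell type differences within 1 genotype and of the interaction contrasts were not followed through the alternatives. With the replicate block, which pairs same-numbered libraries, *nrp2a* became -0.044 in ECs, *nrp1b* 0.10 in HECs and *nrp2b* -0.19 in HSPCs, and the block changed no other call of the 9 genes averaged over genotypes than that of *nrp1b* in HECs over ECs. With 1 library left out, values in ECs ran from -0.50 to 0.057 for *kdrl*, -0.46 to 0.13 for *kdr*, -1.11 to 0.014 for *flt1*, -0.49 to 0.072 for *nrp1a*, -0.40 to 0.38 for *nrp1b* and -0.37 to 0.28 for *nrp2a*. In HECs they ran from -0.0068 to 0.93 for *kdrl*, -0.036 to 0.73 for *kdr*, -0.64 to 0.16 for *nrp1a*, -0.62 to 0.62 for *nrp1b*, -0.96 to 0.72 for *nrp2a*, -0.38 to 0.090 for *nrp2b* and -0.21 to 0.78 for *plxnd1*. In HSPCs they ran from -2.38 to 7.33 for *kdrl*, -6.31 to 2.91 for *flt4*, -0.31 to 2.34 for *nrp1a*, -0.50 to 0.998 for *nrp2a* and -1.43 to 0.996 for *nrp2b*. Where this leaves 1 HSPC library, it is assumed to vary like the other groups. No value was computed for *kdr* or *flt1* without the sibling HSPC library that holds its counts, since both genotypes were then at 0.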
